A study of Homo sapiens with 12 samples.

Results

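The genes described here were the numbered zinc finger genes of chromosome 19, chosen as every entry of the count table whose symbol was ZNF followed by digits only and whose first exon lay on chr19 (hg38). After exact repeats were dropped they numbered 196 of 12451 entries, beside 190 such genes on other chromosomes and 763 other genes of chromosome 19. RNA-seq was carried out on MDA-MB-231-ERβ cells, a triple negative breast cancer line carrying an ERβ (ESR2) construct switched on by doxycycline, and all 4 groups received doxycycline for 5 days. The groups were vehicle, 1 nM estradiol (E2) for 5 days, 20 ng/ml TNFα for the last 3 hours, and E2 for 5 days with TNFα for the last 3 hours (E2 + TNFα), with 3 dishes in each. A single engineered line was used, so p-values measure the spread between dishes of that line.

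Most proteins of this family carry a row of C2H2 zinc fingers, each able to read a few bases of DNA, and many also carry a KRAB domain near the start of the protein. KRAB binds TRIM28, which brings the histone methyltransferase SETDB1, HP1 proteins and other corepressors to the bound site, and the best known targets are transposable elements. The genes lie in tandem clusters that grew by duplication, and their many paralogs often differ in expression between cell types. The question put to the counts was how their levels in each treated group stood against vehicle, and how they stood between treated groups with vehicle left aside.

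All 196 genes were found at the same locus and strand in GENCODE v44, which lists 240 protein-coding genes of this naming on the chromosome. A translated transcript held a KRAB A-box pattern in 154 of them and none in the other 42, and the number of C2H2 patterns ranged from 1 to 31 with a median of 12. The exons of these genes were AT-rich, with a median GC content of 43.5% (range 33.9% to 70.4%), against 49.6% over all entries tested, 60.7% in other genes of chromosome 19 and 47.3% in ZNF genes elsewhere. The exception was a group of 23 genes with an exon GC content of 55% or more, of which 21 lacked the KRAB pattern. Windows of 300 bases around RefSeq transcription starts (hg38), matched for 175 of the genes, had a median GC content of 60.8%, against 58.7% over all such windows, so the low GC content was that of the exons and not of the start sites.

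One finger unit from each of several genes shows how far the coding sequence differs in composition. Each line below is the first C2H2 pattern followed by a linker, read from hg38 in the direction of the gene, with the codons of the linker to the next finger in capitals. The first 4 genes had low exon GC content and lower counts in treated libraries than in vehicle, and the last 3 had high exon GC content and higher counts.
ZNF404: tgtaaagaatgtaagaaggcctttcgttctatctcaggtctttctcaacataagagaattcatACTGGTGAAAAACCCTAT
ZNF441: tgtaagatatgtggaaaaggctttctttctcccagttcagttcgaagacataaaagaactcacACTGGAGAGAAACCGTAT
ZNF829: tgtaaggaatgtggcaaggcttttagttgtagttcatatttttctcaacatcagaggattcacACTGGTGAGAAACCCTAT
ZNF91: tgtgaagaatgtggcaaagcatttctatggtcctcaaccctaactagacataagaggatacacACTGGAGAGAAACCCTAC
ZNF358: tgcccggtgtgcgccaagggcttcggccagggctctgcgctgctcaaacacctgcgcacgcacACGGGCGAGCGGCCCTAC
ZNF787: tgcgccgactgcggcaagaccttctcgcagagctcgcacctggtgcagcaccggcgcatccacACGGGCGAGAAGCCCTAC
ZNF837: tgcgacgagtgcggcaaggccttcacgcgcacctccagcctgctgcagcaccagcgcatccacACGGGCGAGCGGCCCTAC

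These units are all coding exon. That of ZNF404 (chr19:43872729-43872809, minus strand) had a GC content of 35.8%, that of ZNF441 (chr19:11780752-11780832, plus strand) 39.5%, that of ZNF829 (chr19:36892071-36892151, minus strand) 38.3% and that of ZNF91 (chr19:23362097-23362177, minus strand) 43.2%. The units of ZNF358 (chr19:7520035-7520115, plus strand), ZNF787 (chr19:56088806-56088886, minus strand) and ZNF837 (chr19:58368436-58368516, minus strand) had 71.6%, 67.9% and 70.4%. The same protein fold was thus written in codons of opposite composition in the 2 sets.

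The vehicle libraries stood apart from all others before any gene was singled out. They held 35769865 to 39943664 assigned reads, against 7652016 to 15755240 for E2, 19504540 to 30499211 for TNFα and 16790200 to 36729990 with both agents. Spearman correlations of vehicle with treated libraries over all genes were 0.756 to 0.888, while treated libraries of different groups correlated at 0.938 to 0.990 with each other. Principal component 1, which took up 70.4% of the variance, split vehicle from the rest, and over the zinc finger genes alone it took up 80%. The study's methods name a correction for batches, but which library belonged to which batch was not given in the sources used here, so a batch that held vehicle alone and the vehicle condition cannot be told apart. The mesenchymal markers VIM, CD44, MSN and AXL were at 712 to 1898 CPM (reads of a gene for every 1000000 assigned reads, after TMM scaling) in every library, and ESR2 was at 229 to 508 CPM. EPCAM was at 6.55 to 15.7 CPM and ERBB2 at 86.1 to 123 CPM. The epithelial marker CDH1 moved with E2, with means of 3.10 CPM in vehicle and 1.91 CPM in TNFα against 41.2 CPM in E2 and 40.7 CPM with both agents (n = 3). ESR2 had means of 466 CPM in vehicle, 307 CPM in E2, 256 CPM in TNFα and 448 CPM with both agents, and CD44 was highest in TNFα, at 1651 CPM against 744 CPM in vehicle. The part of these differences in the results was not tested.

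The zinc finger genes took a larger share of reads in vehicle than anywhere else. They held 0.254% to 0.270% of assigned reads in vehicle, 0.157% to 0.169% in E2, 0.194% to 0.199% in TNFα and 0.171% to 0.193% with both agents, so the vehicle libraries did not overlap with any other group. On a scale set per length, the median gene had 2.1 RPKM (CPM divided by the exon length in kilobases) in vehicle, 0.756 in E2, 0.728 in TNFα and 0.928 with both agents. The counts are relative and come from bulk RNA, so fewer cells expressing a gene and less RNA per cell cannot be told apart. A group mean of at least 1 RPKM was reached by 74 genes in all 4 groups, by 58 genes in vehicle only, and by 3 genes in a treated group but not in vehicle, while 41 genes reached it in no group. A cutoff of 1 RPKM, computed in this way, thus divided the family, and it was not applied in the tests below. The study also removed genes under 1 RPKM, but over which samples was not given in the sources used here. Its list of genes regulated by TNFα holds ZNF404, which was under 1 RPKM in vehicle here (1.38 CPM over 1851 exon bases). The cutoff above may therefore not be that of the study.

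**Figure D1:**
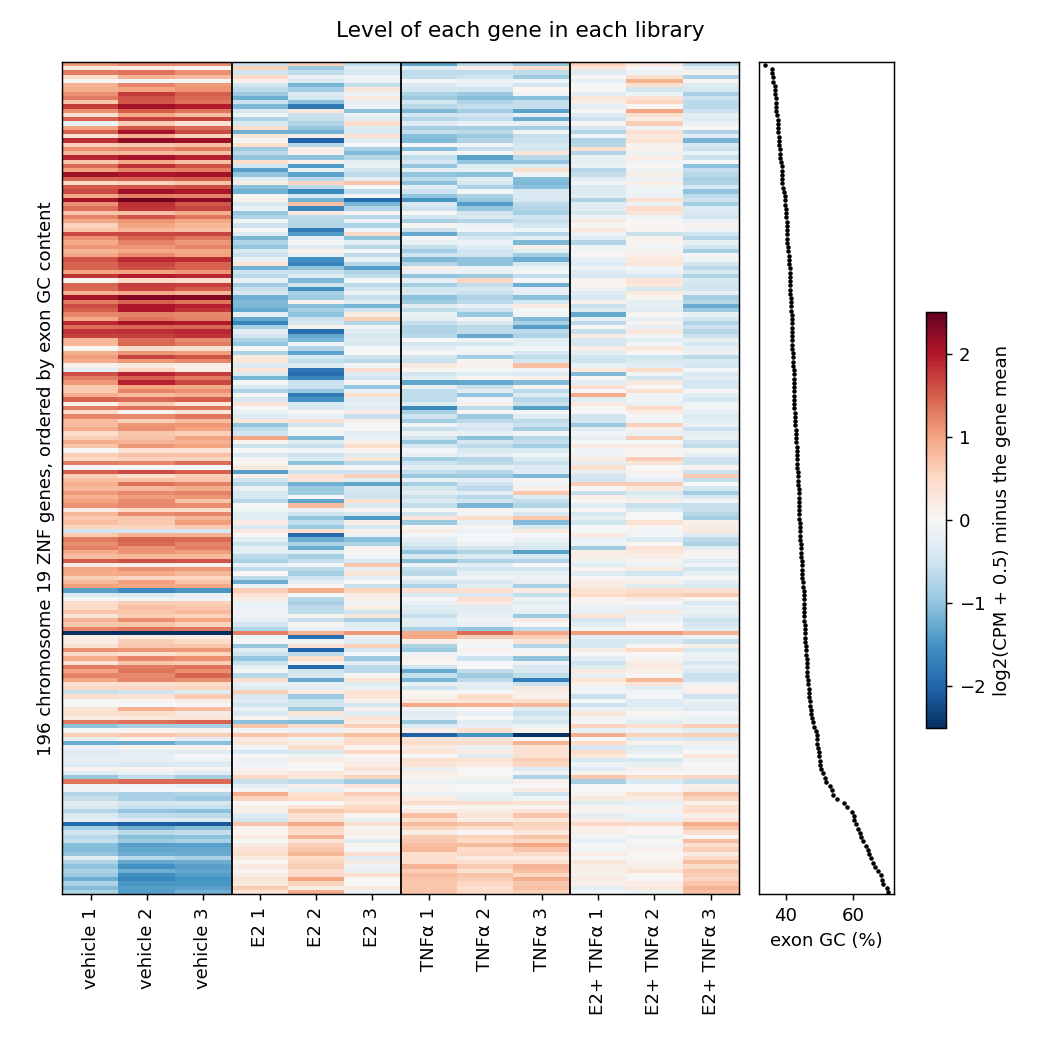
Level of each of the 196 genes (rows, ordered from low to high exon GC content as drawn at the right, in percent) in each of the 12 libraries (columns), as log2(CPM + 0.5) minus the mean of the gene over all libraries, with red above and blue below that mean. The 3 vehicle libraries are red over the AT-rich rows and blue over the GC-rich rows at the bottom, and single rows such as ZNF534 and ZNF114 run against their neighbours.

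The summed levels of genes with and without the KRAB pattern stood on opposite sides of vehicle. A gene without the pattern may still hold a KRAB domain that the search missed. Summed over the 154 genes with the KRAB pattern, vehicle libraries held 1530 to 1717 CPM and all treated libraries 867 to 1034 CPM. Summed over the 42 genes without it, vehicle libraries held 622 to 635 CPM and treated libraries 786 to 1053 CPM. No treated library overlapped with vehicle in either sum. Of the 23 genes with an exon GC content of 55% or more, 21 lacked the pattern. These 23 genes summed to 288 to 364 CPM in vehicle and 649 to 960 CPM in treated libraries. The sums by KRAB pattern thus do not separate the pattern from GC content. Genes with no read at all numbered 0 in each vehicle library and up to 11 in the shallowest library, E2 replicate 2.

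E2 relative to vehicle asked what the liganded receptor did in the absence of TNFα. A gene was called at a log2 fold change of 1.5 or more in either direction with p under 0.05 and a Benjamini-Hochberg adjusted p of at most 0.1 (edgeR quasi-likelihood test over 12384 entries, the study's thresholds). By this rule 86 of the 196 genes fell (43.9%), against 21.0% of all entries tested, and 14 rose (7.14%), against 10.2% of all entries. With library size as the only scaling the same counts were 103 lower and 5 higher, against 27.3% and 5.62% of all entries. The median log2 fold change of the zinc finger genes was -1.25, against -0.05 over all entries, and 150 of 196 were below 0. ZNF genes on other chromosomes had a median of -0.37 with 58 lower and 8 higher of 190, while other genes of chromosome 19 had a median of 0.71 with 27 lower and 119 higher of 756. The genes on the same chromosome thus stood on the other side of vehicle.

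TNFα relative to vehicle asked what a short exposure to the cytokine did, and gave 98 lower genes (50%, against 20.6% of all entries) and 17 higher (8.67%, against 7.00%), with a median of -1.47 against -0.02. E2 + TNFα relative to vehicle gave 62 lower genes (31.6%, against 17.8%) and 12 higher (6.12%, against 7.83%), with a median of -1.03 against -0.05. With library size as the only scaling, E2 + TNFα gave 81 lower and 4 higher, against 22.3% and 5.57% of all entries. All 3 comparisons share the same vehicle libraries, so their resemblance is not independent. With an unwanted factor estimated from 20 housekeeping genes, the kind of correction the study's methods name, few calls were left, at 2 higher and 0 lower in E2, 4 higher and 11 lower in TNFα, and 4 higher and 2 lower with both agents. Over all entries that fit gave 4.35% higher and 3.24% lower in E2, 2.62% and 3.93% in TNFα, and 4.82% and 3.20% with both agents, so calls were fewer across the whole table. The medians of the zinc finger genes were then -0.10, -0.32 and -0.11. That factor was estimated from libraries in which vehicle stood apart, and whether it removed a batch or the treatment was not tested.

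**Figure D2:**
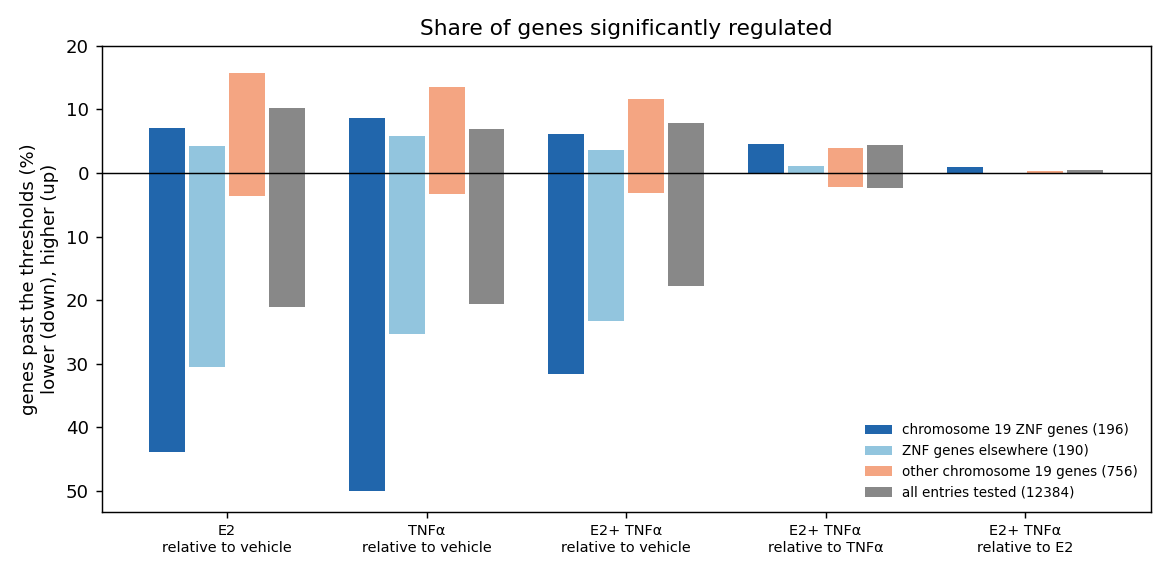
Percentage of genes past the thresholds in each comparison, drawn upward where higher and downward where lower, for the 196 zinc finger genes of chromosome 19, ZNF genes elsewhere, other genes of chromosome 19 and all entries tested. The bars below 0 for the zinc finger genes reach 43.9%, 50% and 31.6% in the comparisons with vehicle and 0% in both comparisons without it.

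Among the genes with the KRAB pattern, 77 of 154 fell (50%) and 3 rose (1.95%) in E2 relative to vehicle, with a median of -1.50. Among the genes without it 9 of 42 fell (21.4%) and 11 rose (26.2%), with a median of 0.71. Of all entries 21.0% fell and 10.2% rose. For TNFα the genes with the pattern gave 89 lower (57.8%) and 3 higher (1.95%), with a median of -1.65. Those without it gave 9 lower (21.4%) and 14 higher (33.3%), with a median of 0.64. Of all entries 20.6% were lower and 7.00% higher. For E2 + TNFα the genes with the pattern gave 55 lower (35.7%) and 2 higher (1.3%), with a median of -1.17. Those without it gave 7 lower (16.7%) and 10 higher (23.8%), with a median of 0.76. Of all entries 17.8% were lower and 7.83% higher. Without the pattern, the share that fell was near that of all entries, but this group was mixed in exon GC content. Of these 42 genes 21 had 55% GC or more, and none of the 23 genes in that range fell in any of the 3 comparisons. All falls without the pattern thus came from genes under 55% GC. Exon GC content moved with the KRAB pattern and with the fold change alike, as only 2 of the 23 genes with 55% GC or more held the pattern while 30 of the 34 genes under 40% and 82 of the 89 genes at 40% to 45% did.

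By exon GC content alone, none of the 34 genes under 40% rose and 24 fell in E2 relative to vehicle, with a median of -1.95. Of the 23 genes at 55% or more, 10 rose and none fell, with a median of 1.40. Entries outside the family and in the same ranges had medians of -2.06 and 0.72, so below 40% the zinc finger genes lay close to other genes. In the largest range, 40% to 45% with 89 genes, they lay lower than other entries, with 59.6% against 41.3% that fell and medians of -1.67 and -1.24 in E2, and with 66.3% against 39.5% that fell in TNFα. For TNFα the AT-rich zinc finger genes had a median of -2.30 (other entries -2.10) and the GC-rich ones 1.58 (other entries 0.72). Over the 196 genes the Spearman correlation of log2 fold change with exon GC content was 0.66 for E2, 0.68 for TNFα and 0.67 for E2 + TNFα relative to vehicle, and over all 12384 entries it was 0.63, 0.69 and 0.64. Genes of one library share its depth and base composition, so these are descriptions across genes.

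**Figure D3:**
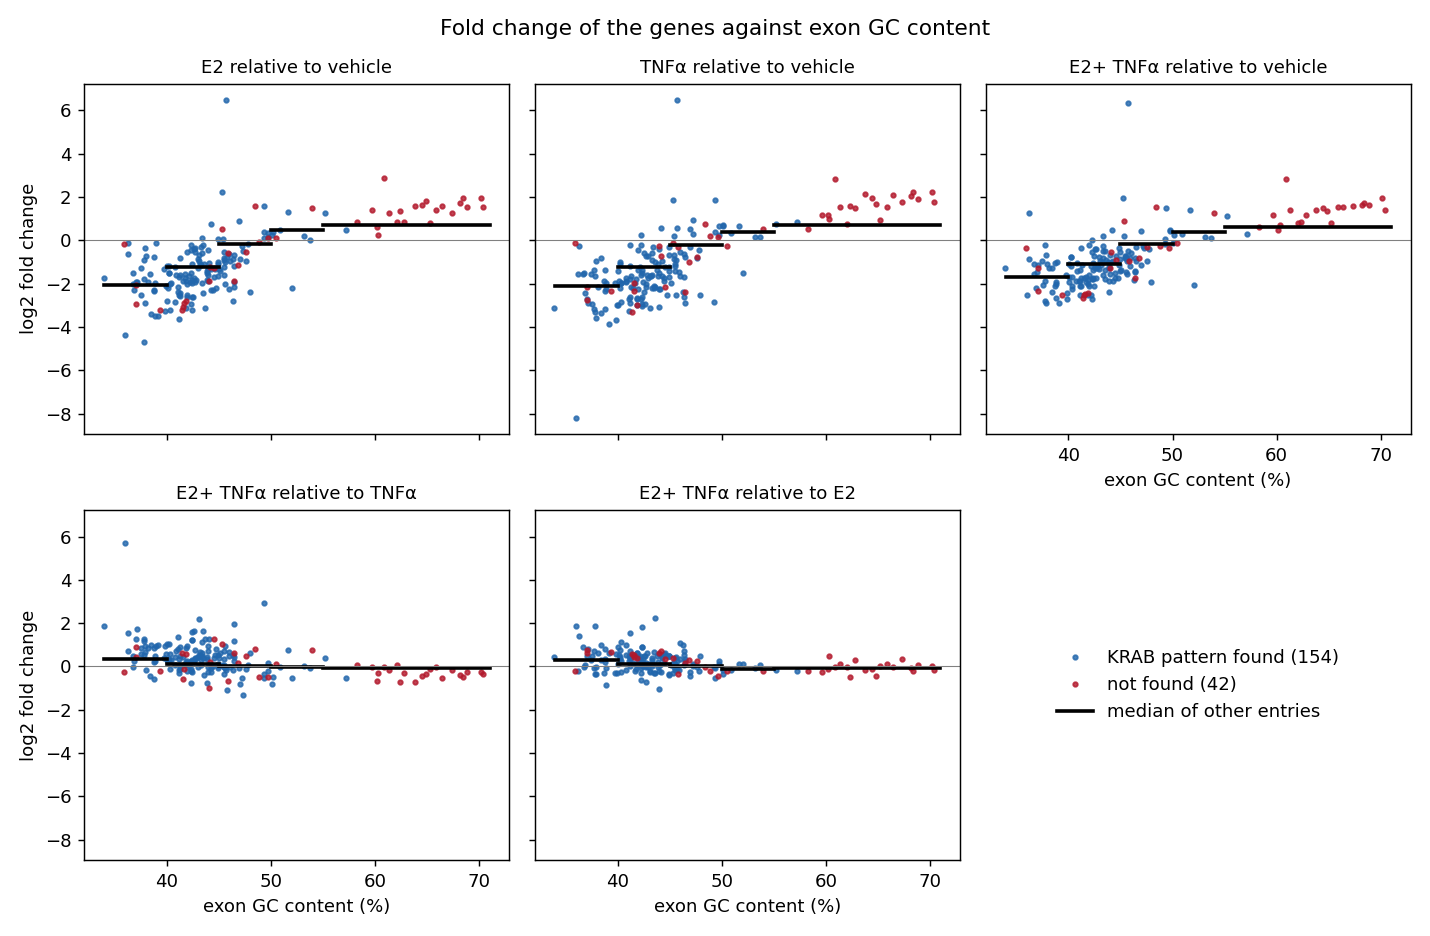
Log2 fold change (vertical axis) against exon GC content in percent (horizontal axis) for the 196 genes in 5 comparisons, in blue where the KRAB pattern was found and in red where it was not, with black bars at the median of the other entries in each of 5 GC ranges. Points climb from low to high GC content in the comparisons with vehicle. In those without it most lie nearer 0 and run the other way (Spearman correlation -0.44 relative to TNFα and -0.36 relative to E2). ZNF404, the lowest point for TNFα relative to vehicle and the highest for E2 + TNFα relative to TNFα, had no read in TNFα, so its position depends on the fit.

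Lower counts in treated libraries were found in most clusters along the chromosome. The 24 genes at 19.7 to 24.1 Mb, the most AT-rich cluster with a median GC content of 37.7%, gave 14 lower (58.3%, against 21.0% of all entries) and 0 higher (against 10.2%) in E2 relative to vehicle with a median of -1.77. The 24 genes at 34.7 to 37.8 Mb gave 16 lower (66.7%) and 1 higher (4.17%) with a median of -2.02. The 88 genes at 48.3 to 58.5 Mb held most of the higher genes, with 10 higher (11.4%) and 31 lower (35.2%) and a median of -0.88. By number of fingers, the 11 genes with 1 to 5 C2H2 patterns gave 4 higher (36.4%) and 0 lower (median 1.35), and the 43 genes with 16 or more gave 2 higher (4.65%) and 24 lower (55.8%, median -1.61).

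ZNF91 and ZNF93 are KRAB proteins that silence primate retrotransposons, SVA and L1 elements respectively. ZNF91 was at 11.9, 14.5 and 13 CPM in vehicle, at 1.65, 3.35 and 5.44 CPM in E2, at 2.22, 1.90 and 1.93 CPM in TNFα and at 5.63, 5.94 and 3.00 CPM with both agents. Every vehicle library was above every treated one, and the 3 TNFα libraries lay within a narrow range. The log2 fold changes relative to vehicle were -1.93 ± 0.35 (SE, adjusted p = 0.000109) in E2 and -2.70 ± 0.34 (adjusted p = 3.61e-06) in TNFα, while -1.44 ± 0.32 in E2 + TNFα missed the size threshold. With the GC and length trends of each library removed, the value of ZNF91 turned to 0.28 for E2 and 0.38 for E2 + TNFα, and the fall in TNFα, at -0.42, no longer passed. ZNF93 fell in all 3 comparisons, by 2.16 on the log2 scale in E2, by 2.69 in TNFα and by 1.90 in E2 + TNFα. None of the 3 calls of ZNF93 held with the trends removed, at -0.77, -1.24 and -0.68.

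ZNF146, which consists almost wholly of zinc fingers and has no KRAB domain, had the highest level of all 196 genes in vehicle, at 19.4 RPKM. It was at 63.1, 83.1 and 78.1 CPM there, at 8.80, 9.26 and 8.61 CPM in E2, at 16.4, 17.7 and 23.6 CPM in TNFα and at 13.4, 16.9 and 8.12 CPM with both agents. All treated libraries were below all vehicle libraries, and E2 libraries were below those with TNFα alone. The log2 fold changes relative to vehicle were -3.08 ± 0.24 in E2 (adjusted p = 2.23e-08), -1.96 ± 0.22 in TNFα and -2.55 ± 0.23 with both agents. With the trends removed they were -1.69, -0.53 and -1.38, and the fall in E2 alone still passed.

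ZNF441 had the largest fall in E2 among genes averaging 1 CPM or more. It was at 2.69, 4.26 and 3.09 CPM in vehicle and at 0, 0 and 0.363 CPM in E2, where 4 reads were counted in all. Its log2 fold change was -4.68 ± 0.84 in E2 (adjusted p = 0.000102). Of the other genes averaging 1 CPM or more, ZNF829 fell by 3.65 on the log2 scale, ZNF525 by 3.51 and ZNF813 by 3.40 in E2. Among genes averaging 1 CPM or more, the largest falls in TNFα were in ZNF845 (-3.66 ± 0.51), ZNF569 (-3.59 ± 0.54), ZNF813 (-3.37 ± 0.31) and ZNF83 (-3.31 ± 0.24). In E2 + TNFα they were in ZNF569 (-2.91 ± 0.51), ZNF441 (-2.79 ± 0.56), ZNF439 (-2.71 ± 0.40) and ZNF845 (-2.70 ± 0.47). With the trends removed these last 4 were at -1.24, -1.12, -1.69 and -1.18, and only ZNF439 still passed. The calls of ZNF525 and ZNF813 in E2 (-1.44 and -1.50) and of ZNF569 and ZNF813 in TNFα (-1.50 and -1.37) were lost as well. ZNF83, the most abundant of these, had a mean of 41.1 CPM in vehicle and of 4.13 to 6.45 CPM in the treated groups.

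ZNF331 and ZNF382 have been described as growth restraining genes that are silenced in tumors, and ZNF331 is imprinted. ZNF331 was at 22.6, 23.7 and 23.7 CPM in vehicle, at 5.57, 5.27 and 4.44 CPM in E2, at 7.74, 7.47 and 9.30 CPM in TNFα and at 4.64, 6.54 and 5.45 CPM with both agents. Replicates of each group lay close together and vehicle did not overlap with any of them. Its exon GC content of 52.0% is above that of most KRAB genes, and its fall in E2 was nearly the same before (-2.19 ± 0.19) and after (-2.15) the GC and length trends were removed. A stretch of 1406 bases of ZNF331 has a near-identical copy, so how its reads were shared is uncertain. ZNF382 was at 2.5, 2.52 and 2.68 CPM in vehicle and at 0 to 0.544 CPM in treated libraries, with a log2 fold change of -3.50 ± 0.71 in E2.

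Several genes on the list of known roles had smaller fold changes. ZNF45 had log2 fold changes of -0.67 ± 0.19, -0.75 ± 0.18 and -0.30 ± 0.18 against vehicle after E2, TNFα and both agents, none past the size threshold. ZNF649 had -0.80 ± 0.37, -0.24 ± 0.32 and -0.36 ± 0.33, and ZNF85 had -0.73 ± 0.30, -0.94 ± 0.29 and -1.09 ± 0.29. ZNF43, ZNF136 and ZNF226 fell in TNFα by 1.90, 2.20 and 1.67 on the log2 scale, and of these ZNF136 also fell in E2, by 1.53. That last call was lost without E2 replicate 2 (-1.32) or vehicle replicate 2 (-1.48). For E2, removal of the trends turned ZNF43 to 1.52, ZNF85 to 1.27, ZNF649 to 0.70 and ZNF226 to 0.030, so the direction of these 4 rested on the scaling. For TNFα it took ZNF43 to 0.23, ZNF85 to 1.14 and ZNF649 to 1.27, and left ZNF136 at -0.63 and ZNF226 at -0.66, so none of the 3 falls in TNFα passed without the trends. The fall of ZNF136 in E2 was also lost, at -0.040.

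ZNF274, a KRAB protein known to bring SETDB1 to the ends of other zinc finger genes, did not pass in any comparison. It was at 55.8, 58.1 and 59.0 CPM in vehicle, at 58.7, 52.5 and 62.7 CPM in E2, at 62.3, 60.3 and 69.3 CPM in TNFα and at 58.4, 58.1 and 68.3 CPM with both agents. The groups overlapped, apart from TNFα, whose lowest library was above the highest of vehicle. Its log2 fold change was small (0.01 ± 0.12 for E2, or -0.39 with the trends removed, and 0.15 ± 0.12 for TNFα). ZNF317, the KRAB gene of highest RPKM, had 0.39 ± 0.12 in E2, 0.72 ± 0.11 in TNFα and 0.24 ± 0.11 with both agents. Both genes lie at an exon GC content above 50%.

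The genes of highest RPKM were ZNF581, ZNF787, ZNF358, ZNF524 and ZNF317, with means over the 12 libraries of 34.7, 28.6, 28.3, 18.4 and 16.1 RPKM. The first 4 lack the KRAB pattern and have GC-rich exons. ZNF358 was at 21.4, 16 and 17.6 CPM in vehicle, at 64.8, 101 and 50.3 CPM in E2, at 83.1, 79.2 and 95.7 CPM in TNFα and at 58.3, 51.7 and 74.2 CPM with both agents. Vehicle was lowest without overlap, and E2 spread most. The fold changes on the log2 scale were 1.97 ± 0.22 in E2 (adjusted p = 7.9e-07), 2.23 ± 0.22 in TNFα and 1.74 ± 0.22 with both agents, but 0.95 in E2 once the trends were removed and -0.40 with the unwanted factor. ZNF787 rose in all 3 comparisons, by 1.57, 2.08 and 1.56, and ZNF580, with 3 C2H2 patterns, rose by 1.59 in E2 and 2.14 in TNFα. ZNF837, the most GC-rich gene named here at 70.1%, rose by 1.95, 2.22 and 1.95, and ZNF524 by 1.63 in E2 and 1.95 in TNFα. With the trends removed ZNF787 was at 0.84, 1.25 and 0.78 and ZNF837 at 0.96, 0.84 and 0.81, and of the rises of ZNF358, ZNF787, ZNF580, ZNF837, ZNF524 and ZNF581 none passed. ZNF581 rose in TNFα by 1.58, while 1.35 ± 0.18 in E2 and 0.85 ± 0.18 in E2 + TNFα missed the size threshold. The rises of ZNF787, ZNF580 and ZNF524 in E2 rested on E2 replicate 2, without which they were 1.42, 1.49 and 1.49, and that of ZNF787 also on vehicle replicate 2 (1.46 without it).

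Some genes stood out from the trend with GC content, in direction or in size. The first were ZNF534, ZNF607 and ZNF428, higher in every treated group with the trends left in and with them removed. ZNF534, a KRAB gene of 14 C2H2 patterns at chr19:52429321-52451939 on the plus strand, was at 0.0238, 0.0925 and 0.237 CPM in vehicle, which is 1, 4 and 11 reads. It was at 12.6, 9.42 and 11.1 CPM in E2, at 9.92, 13.9 and 10.2 CPM in TNFα and at 10.8, 10.7 and 9.41 CPM with both agents. The treated groups overlapped with each other, and each lay far above vehicle. On the log2 scale it rose by 6.47 ± 0.39 in E2 (adjusted p = 1.84e-09), 6.50 ± 0.39 in TNFα and 6.36 ± 0.39 with both agents, and 6.79, 6.91 and 6.65 with the trends removed. ZNF607, with 45.3% exon GC, had means of 8.83 ± 0.745 CPM in vehicle, 41.5 ± 5.87 CPM in E2, 32.4 ± 2.95 CPM in TNFα and 33.7 ± 0.879 CPM with both agents (SD, n = 3). ZNF428, with a lone C2H2 pattern and 60.9% exon GC, rose in the direction of the trend and stood out by size. It had 4.18 ± 0.312 CPM in vehicle and 30.4 ± 5.77, 30.2 ± 2.46 and 29.8 ± 5.24 CPM in E2, TNFα and E2 + TNFα.

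ZNF404 was the second to stand out, a KRAB gene of 14 C2H2 patterns at chr19:43872363-43883964 on the minus strand with an exon GC content of 36.0%. Its fall had the direction of the trend and stood out by size. With the trends removed it was at -3.07 in E2 and -7.57 in TNFα relative to vehicle. With both agents it was at -1.25, under the size threshold. ZNF404 had 59, 65 and 57 reads in the vehicle libraries, 1, 0 and 1 in E2, 0 in each TNFα library and 2, 6 and 11 with both agents. The groups with TNFα alone and with both agents did not overlap, and vehicle was above all. With a floor of 3 reads in each TNFα library, ZNF404 was at least 11.7-fold lower in TNFα than in vehicle. E2 + TNFα was at least 1.87-fold higher than TNFα by the same floor. The ratio of vehicle to E2 was 21.9 (95% interval of counting error 6.07 to 181, on 2 reads in E2).

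**Figure D4:**
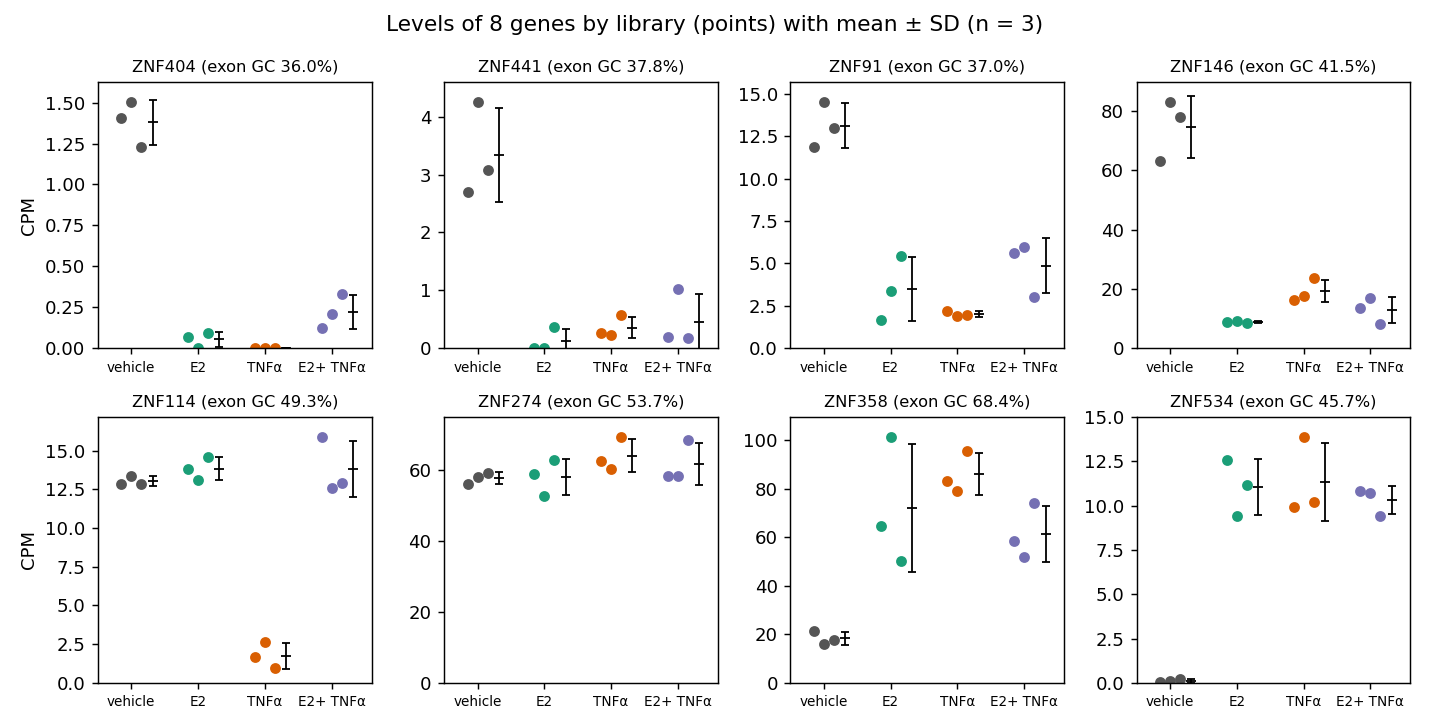
CPM (vertical axes, each from 0) of 8 genes in the 12 libraries, 1 point a library, with the mean and SD (n = 3) of each group drawn beside its points. ZNF404, ZNF441, ZNF91 and ZNF146 are highest in vehicle, ZNF114 is low in TNFα alone, ZNF274 is at 52.5 to 69.3 CPM throughout, and ZNF358 and ZNF534 are lowest in vehicle.

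Genes of the silencing machinery that KRAB proteins use were counted from a list of 36 symbols, 35 of them tested under a current symbol. In E2 relative to vehicle 10 of 35 fell and none rose, with a median of -0.98, in TNFα 10 fell (median -0.80) and in E2 + TNFα 9 fell (median -0.82). The share that fell was 28.6% in E2, against 21.0% of all entries, 28.6% in TNFα, against 20.6%, and 25.7% with both agents, against 17.8%. Those that fell in E2 were ATRX, CBX3, DNMT3B, HDAC2, MORC3, PPHLN1, SMARCAD1, SUV39H2, TASOR and TRIM33. ATRX, a chromatin remodeler, had a mean of 35.0 CPM in vehicle, 2.86 CPM in E2, 4.44 CPM in TNFα and 7.24 CPM with both agents. The core pair, named here for its role, did not pass, with log2 fold changes in E2 of 0.18 ± 0.15 for TRIM28 and -0.05 ± 0.13 for SETDB1. Without vehicle in the comparison, 0 of 35 passed in E2 + TNFα relative to TNFα (edgeR, with 17 at an unadjusted p under 0.05) and 0 with both agents relative to E2 (10 at an unadjusted p under 0.05).

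E2 + TNFα relative to TNFα asked what the liganded receptor did in cytokine-treated cells. Of 196, 9 rose (4.59%, against 4.38% of all entries) and 0 fell (against 2.38%), with a median of 0.25 against 0.04. On adjusted p alone, with no size threshold, 46 genes were higher (23.6% of all entries were) and 22 lower (20.6%). The share that rose was thus near that of all entries, and the fold changes still ran against GC content, with a Spearman correlation of -0.44 over the 196 genes. Genes under 40% GC had a median of 0.69 (other entries 0.37), and the 23 genes at 55% or more had -0.28 (other entries -0.07).

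ZNF114, a KRAB gene of 3 C2H2 patterns at chr19:48270099-48287608 on the plus strand, was the third to stand out and had the clearest rise of this comparison. It was at 12.9, 13.4 and 12.9 CPM in vehicle, at 13.8, 13.1 and 14.6 CPM in E2, at 1.65, 2.62 and 0.940 CPM in TNFα and at 15.9, 12.6 and 12.9 CPM with both agents. TNFα alone was low and the other 3 groups overlapped. The log2 fold change of E2 + TNFα relative to TNFα was 2.95 ± 0.27 (adjusted p = 4.06e-07), and it was 2.85 with the trends removed. Relative to vehicle it was -2.87 ± 0.26 in TNFα, 0.09 ± 0.24 in E2 and 0.08 ± 0.23 in E2 + TNFα. A gene on the other strand overlaps ZNF114, and the strand setting of the counting was not given in the sources used here.

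The other genes that rose in E2 + TNFα relative to TNFα were ZNF404, ZNF799 (1.96 ± 0.52, adjusted p = 0.00778), ZNF681 (1.86 ± 0.53), ZNF675 (1.75 ± 0.42), ZNF571, ZNF582, ZNF823 and ZNF878. All 9 hold the KRAB pattern, as do 154 of the 196 genes. In TNFα relative to vehicle, a comparison that shares the TNFα libraries, those other than ZNF404 had log2 fold changes from -2.12 (ZNF878) to -3.15 (ZNF681). ZNF799 was at 0.562, 0.983 and 0.209 CPM in TNFα and at 2.48, 3.67 and 1.14 CPM in E2 + TNFα, and 3125 of its bases have a near-identical copy in ZNF443, so how reads were shared is uncertain. E2 + TNFα replicate 2 carried much of this group, as 4 genes passed without it, and ZNF799 and ZNF675 were then at 1.47 and 1.09. ZNF681 did not pass without E2 + TNFα replicate 1, at 1.46. With the trends removed 6 of the 9 still passed, namely ZNF114, ZNF404, ZNF582, ZNF799, ZNF823 and ZNF878.

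No zinc finger gene fell past the size threshold. The largest fall on adjusted p alone was ZNF419, one of the 196 genes, which was picked after its values were seen. It was at 9.80, 9.74 and 10.3 CPM in vehicle, at 7.01, 7.19 and 7.07 CPM in E2, at 20.1, 19.4 and 18.3 CPM in TNFα and at 6.87, 7.97 and 8.30 CPM with both agents. TNFα alone was above all others, the reverse of ZNF114, with a log2 fold change of -1.32 ± 0.16 for E2 + TNFα relative to TNFα (adjusted p = 9.44e-06). Among genes of known role, ZNF91 had 1.25 ± 0.34, ZNF136 1.02 ± 0.27, ZNF146 -0.58 ± 0.22 and ZNF580 -0.73 ± 0.16, none past the size threshold.

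E2 + TNFα relative to E2 asked what TNFα added once the receptor was liganded, and moved few genes of any kind. Of 196, 2 rose (1.02%, against 0.428% of all entries) and 0 fell (against 0.0404%), with a median of 0.15 against 0.01. Here too the fold changes ran against GC content, with a Spearman correlation of -0.36 over the 196 genes and -0.32 over all entries. ZNF790 was at 0.619, 0.319 and 0.272 CPM in E2 and at 2.41, 2.41 and 1.38 CPM with both agents. Those groups did not overlap, and the vehicle libraries were higher still at 3.03, 4.35 and 3.97 CPM. The rise was 2.23 ± 0.46 on the log2 scale (adjusted p = 0.0238), and 2.07 with an adjusted p of 0.105 without E2 + TNFα replicate 2. ZNF829 had 1.53 ± 0.39 (adjusted p = 0.0515) and did not pass without any 1 of 4 libraries, E2 replicate 1 (1.56, adjusted p = 0.154), E2 replicate 3 (1.37), E2 + TNFα replicate 1 (1.43) or E2 + TNFα replicate 2 (1.35).

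With 1 library left out the number of rises was 1 without E2 replicate 1, 2 without E2 replicate 2, 4 without E2 replicate 3, and 1, 0 and 3 without E2 + TNFα replicates 1, 2 and 3. With only the E2 and E2 + TNFα libraries in the fit, 0 genes passed, and by DESeq2 1 gene passed. Neither rise in this comparison held in every fit.

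The trends of each library with exon GC content and exon length were then removed to see what was left of the family pattern. Relative to vehicle, 9 genes rose and 21 fell in E2, 7 rose and 23 fell in TNFα, and 4 rose and 5 fell with both agents. The medians were -0.22, -0.29 and -0.28, and the correlation with GC content over the 196 genes was 0.14, 0.23 and 0.12. In E2 the zinc finger genes stood at 10.7% lower and 4.59% higher, against 7.59% and 7.60% of all entries under the same setting. In TNFα they stood at 11.7% lower and 3.57% higher, against 6.59% and 5.36%. With both agents the shares were 2.55% lower and 2.04% higher, against 5.94% and 6.26%, so there the share that fell was below that of all entries. Both settings called 24 genes in E2, 27 in TNFα and 8 with both agents. Among them, ZNF331, ZNF570 and ZNF724 were lower and ZNF428, ZNF534 and ZNF607 higher in each comparison, which share the vehicle libraries. The ZNF724 entry had the locus and counts of AC092329.3 and covered only 568 exon bases. Its GC content there was 46.3%, against 37.6% in the coding sequence, so its trend-removed value rests on that short stretch.

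In E2 + TNFα relative to TNFα the medians were 0.25 before and 0.09 after removal, and 6 genes rose (3.06%, against 3.81% of all entries).

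**Figure D5:**
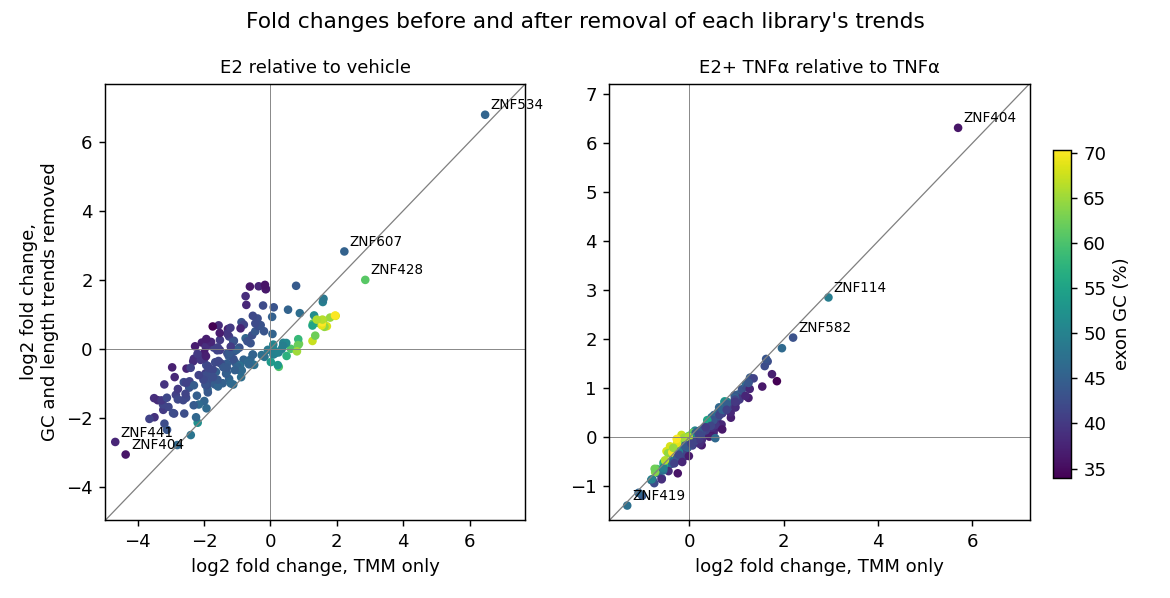
Log2 fold change of the 196 genes with TMM scaling only (horizontal axes) against the value with each library's GC and length trends removed (vertical axes), for E2 relative to vehicle (left) and E2 + TNFα relative to TNFα (right), colored by exon GC content in percent. In the left panel AT-rich genes lie above the diagonal and GC-rich genes below it, while ZNF534, ZNF607 and ZNF428 are high on both axes. In the right panel points lie close to the diagonal.

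The interaction term, the effect of E2 with TNFα minus the effect of E2 without it, also contains vehicle. It was past the thresholds and above 0 for 104 of the 196 genes (53.1%, against 23.1% of all entries) and below 0 for 14 (7.14%, against 9.63%), with a median of 1.66 against 0.02. With the trends removed it was above 0 for 34 genes (17.3%, against 8.12% of all entries) and below 0 for 10 (5.1%, against 6.99%). With the unwanted factor it was above 0 for 2 genes and below 0 for 2, where all entries stood at 2.08% and 1.74%. Its size ran with exon GC content at a Spearman correlation of -0.68 over the 196 genes, so the most AT-rich genes had the most positive values.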

How the data were processed

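Total RNA of 12 samples was made into stranded poly(A) libraries (TruSeq) and sequenced as 50-base read pairs. Per the labels, the authors aligned reads with TopHat2 2.1.0 to hg38 and deposited raw featureCounts read counts per gene. The annotation, strand and multi-read settings, the rule by which genes entered the table and the batch of each library were not given in the sources used here, and the authors' housekeeping gene correction is not in these counts. Of 12567 rows, 46 exact repeats and 70 with the locus and counts of another entry were dropped, which left 12451 entries. All 12 libraries were fitted together with edgeR 4.0.16 (TMM, 4 group means, quasi-likelihood test) on 12384 entries with at least 10 reads in total. A call needed a log2 fold change of 1.5 or more in either direction, p under 0.05 and adjusted p up to 0.1. The SE of a log2 fold change was its absolute value divided by the square root of the F statistic. It is thus derived from the test and is approximate for genes with few reads. CPM and RPKM used TMM library sizes and the summed exon length in the table.

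Exon GC content was read from hg38, and C2H2 and KRAB patterns from translated GENCODE v44 transcripts (RefSeq proteins were planned, but no table of them was used here). The KRAB pattern was widened after known KRAB genes were seen to be missed. Copies of at least 200 bases and 95% identity were sought with minimap2 2.31, and 9 genes had one. A gene on the other strand overlaps 96 of the 196 genes.

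The members and gene lists were chosen with earlier results of these data known. Named genes were a list fixed for known roles, the 5 of highest mean RPKM, the 4 largest rises and falls per comparison among called genes averaging 1 CPM or more whose groups did not overlap, ZNF404 and ZNF534. Alternatives were other scalings (DESeq2 1.42.0 size factors, library size only), DESeq2 itself, RPKM filters, no filter, an unwanted factor, loess trends (span 0.3) of log counts on GC content and length removed per library, a replicate block, only the groups compared, genes with copies left out, and each library left out in turn. The scripts were tested on simulated data. Depth ranged from 7652016 to 39943664 reads, and intervals cover counting error only.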

Additional observations from a re-analysis of the deposited data

Results flagged for a closer look

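The following values were marked because the effect of E2 differed between cells with and without TNFα by the interaction term of the edgeR fit, which contains the vehicle libraries in every case. It passed the thresholds for 118 of the 196 genes.

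Of the named genes, the difference (log2, effect of E2 with TNFα minus effect without it) was 5.19 ± 1.14 for ZNF441, 4.37 ± 0.48 for ZNF813, 4.37 ± 0.57 for ZNF790 and 4.25 ± 0.75 for ZNF845, all of them highest in vehicle. It was -6.61 ± 0.48 for ZNF534, -2.87 ± 0.24 for ZNF428, -2.45 ± 0.30 for ZNF358 and -2.32 ± 0.24 for ZNF580, all of them lowest in vehicle. With the GC and length trends removed ZNF358 was at -1.24 and ZNF845 at 2.22.

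For ZNF114 the difference was 2.86 ± 0.35 (adjusted p = 5.72e-06), and 3.02 with the trends removed. Unlike the genes above, its vehicle and E2 libraries overlapped and TNFα alone was low, so leaving vehicle aside kept the contrast of E2 + TNFα with TNFα at 2.95. Groups of 3 libraries were not examined for single outlying values.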

How the results depend on the processing

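The numbers of zinc finger genes called against vehicle after E2, TNFα and both agents, 100, 115 and 74, were 46, 54 and 37 among genes with a mean of at least 1 RPKM (fewer genes were tested), 2, 15 and 6 with the unwanted factor, and 30, 30 and 9 with GC and length trends removed. The interaction, 118, became 61, 4 and 44. For E2 + TNFα relative to TNFα, 9 became 5 with at least 1 RPKM in at least 3 libraries and 3 with a mean of at least 1 RPKM. The 2 rises of E2 + TNFα relative to E2 became 1 and 0 with those filters and 1 with DESeq2. They became 1 with trends removed and 0 with only the groups compared. With the unwanted factor 0 genes rose and 1 gene fell. Leaving out each library gave 87 to 104, 107 to 120 and 62 to 91 relative to vehicle, 4 to 10 relative to TNFα, 0 to 4 relative to E2 and 107 to 124 for the interaction. Scaling by library size only moved the median of all entries relative to vehicle by more than 0.1, to -0.42, -0.25 and -0.30, to 0.14 for E2 + TNFα relative to E2 and to 0.37 for the interaction.

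Same-numbered replicates did not deviate together (18 pairs, 5 above 0.1, range -0.50 to 0.48), so the numbers do not pair the samples. With the replicate block the counts were 101, 115, 76, 9, 2 and 117, and with the block and trends removed together 30, 31, 9, 5, 1 and 44.

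The following log2 fold changes turned direction, and the cause was not tested. In E2 relative to vehicle, removal of trends gave 0.28 for ZNF91, 0.030 for ZNF226, 1.52 for ZNF43, 1.27 for ZNF85, 0.70 for ZNF649, -0.17 for ZNF114 and -0.39 for ZNF274, and with the block added 0.26, 0.027, 1.47, 1.23, 0.72, -0.16 and -0.39. Of the genes of known role, removal of trends also gave 0.23 for ZNF43, 1.14 for ZNF85, 1.27 for ZNF649 and -0.24 for ZNF274 in TNFα, and 0.38 for ZNF91, 0.83 for ZNF43, 0.64 for ZNF85, 0.91 for ZNF649, 0.18 for ZNF136 and -0.29 for ZNF274 in E2 + TNFα. The unwanted factor gave 3.36 for ZNF441, 2.58 for ZNF649, 2.11 for ZNF85, 1.39 for ZNF93, 0.62 for ZNF226, 0.15 for ZNF45, -0.11 for ZNF274, -0.40 for ZNF358, -0.27 for ZNF581, -0.028 for ZNF524 and -0.028 for ZNF580. It also gave 1.58 for ZNF569 in TNFα, 2.97 for ZNF441, 2.58 for ZNF569 and 0.27 for ZNF845 in E2 + TNFα, -2.58 for ZNF441 in the interaction and a median of -0.036 over the genes in E2 + TNFα relative to E2. ZNF114 and ZNF274, near 0 in E2, were at -0.29 and -0.36 with library size only and -0.065 and -0.14 with a mean of at least 1 RPKM. ZNF274 was also at -0.029 with at least 1 RPKM in at least 3 libraries and at -0.012 to 0.12 with each library left out, below 0 without E2 replicate 3 and, at -0.011, without vehicle replicate 1. The shallowest library, E2 replicate 2, limited what could be seen of genes with few reads.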
